A study of Mus musculus with 7 samples.

Results

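Collagen genes were taken as every row of the expression table whose gene symbol was Col, a type number, the letter a and a chain number, with nothing before or after. This gave 44 of the 49382 rows, and 25 of these averaged 2 TPM or more across the 7 libraries, the level from which values are given here. TPM is a gene's share of a library after correction for transcript length, scaled to a total of 1000000, so levels of different genes can be compared within a library. The libraries came from wild-type mouse embryonic fibroblasts (MEFs), primary cells cultured from embryos without the head and red tissue and expanded for a few passages, and each condition had 1 library. The control was untreated. Oxidative stress was 10 μM sodium arsenite for 3 h, osmotic stress was 100 mM of added NaCl for 3 h, and ER stress was 1 μM thapsigargin, a blocker of the calcium pump of the endoplasmic reticulum (ER), for 10 h. Depletion of glucose, depletion of glutamine and hypoxia (0.1% oxygen) each lasted 10 h. Treatments therefore differed in length, and the labels give no time for the control. With 1 library a condition there is no spread between replicates to set a difference against, so no test was made. All 6 conditions were compared with the same control library, and a value that was unusual in that library enters all 6 changes.

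Collagens are secreted proteins built of chains in which glycine recurs at a fixed interval, and 3 such chains wind into a triple helix. The chains are hydroxylated, folded and joined in the ER before export. Fibrillar collagens (types I, II, III, V, XI, XXIV and XXVII) form the cross-striated fibrils of skin, bone, tendon and cartilage. Type IV forms the sheets of basement membranes, type VI forms beaded filaments, and types VIII and X form hexagonal networks. The FACIT collagens, such as types XII, XIV and XVI, attach to the surface of fibrils. Fibroblasts are the main source of types I, III, V and VI in connective tissue.

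Fibrillar chains dominated the collagen transcripts of the control MEFs. The 44 rows summed to 11673 TPM, which was 1.17% of the control library, and fibrillar chains made up 73.2% of that sum. The chains of type I were the most abundant, Col1a1 at 3154 TPM and Col1a2 at 2179.6 TPM, followed by Col3a1 at 1479 TPM. The fibril-regulating type V chains Col5a2 and Col5a1 stood at 884 and 671 TPM. Among the other types, the basement membrane chains Col4a1 and Col4a2 were at 659 and 377 TPM, and the filament chains Col6a1, Col6a2 and Col6a3 at 476, 388 and 279.6 TPM. Chains known mainly from cartilage were present too, with Col10a1 at 201 TPM, Col11a1 at 102 TPM and Col2a1 at 16.5 TPM. The members just inside the threshold were Col28a1 and Col15a1, with means of 2.36 and 3.14 TPM, and those just outside it were Col24a1, Col4a6 and Col11a2, with means of 1.89, 1.36 and 1.30 TPM. The 19 members under the threshold included the kidney basement membrane chains Col4a3 and Col4a4, the cartilage chains Col9a1, Col9a2 and Col9a3, and the epithelial collagen Col17a1. Col13a1, a transmembrane collagen, was listed at 0 in all 7 libraries.

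**Figure D1:**
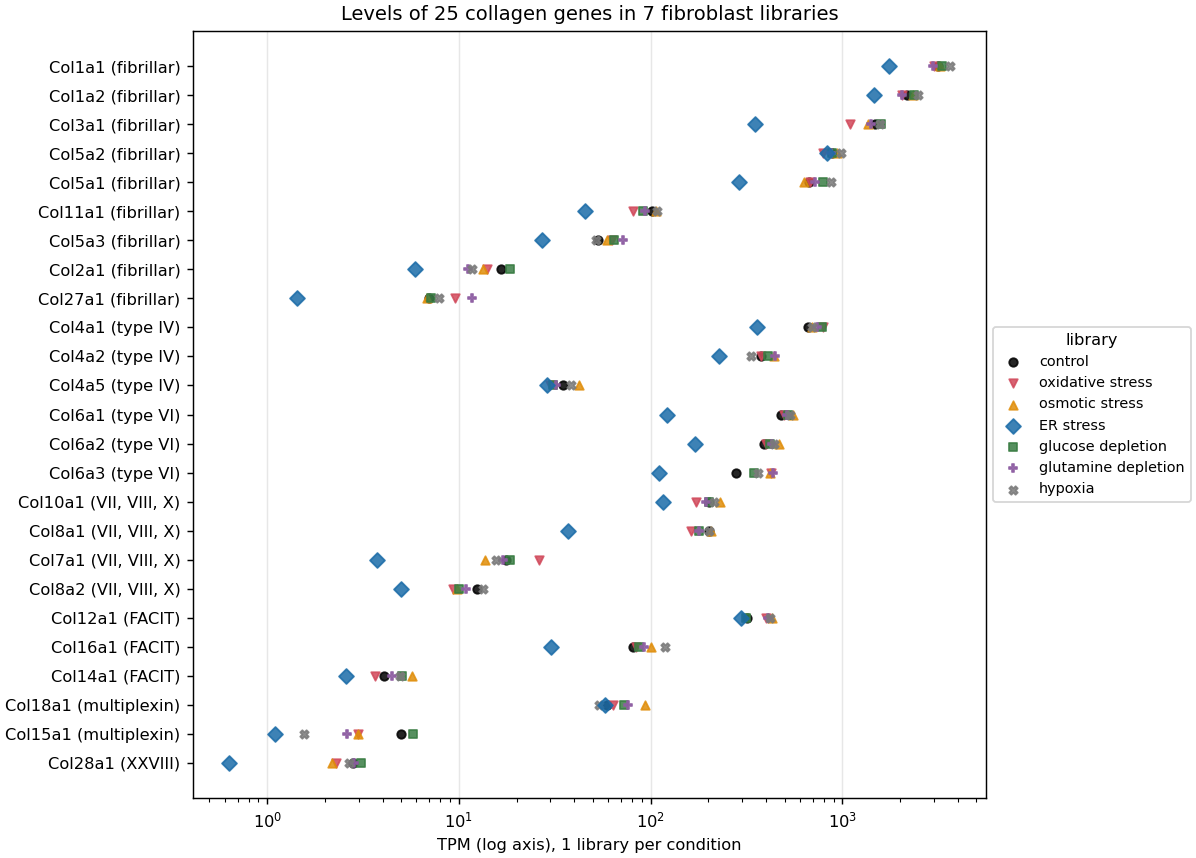
Level of each of the 25 collagen genes in TPM (log axis), grouped by class, with 1 point for each of the 7 libraries and no error bars, since each condition has 1 library. The ER stress library is the lowest point in 23 of the 25 lines, and the other 6 libraries lie close together in most of them.

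More collagen genes fell in ER stress than in any other condition. Changes were taken as log2(TPM + 1) in a condition minus log2(TPM + 1) in the control, a scale that understates the change of genes near 1 TPM, and a gene was said to rise or fall where it moved by more than 2-fold (log2 change beyond 1). In ER stress 14 of the 25 members fell, where 11.0% of the 12909 genes past the same level fell, and 0 rose, where 8.60% of those genes rose. All 25 members were lower than in the control, against 48.5% of the genes (49.9% were higher), and their median log2 change was -1.16 beside 0.00 for all genes. The ER stress library was the lowest of the 7 for 23 of the 25 members, and for 24.1% of the genes. Summed over the 44 rows, collagen transcripts went from 11673 TPM to 6336 TPM, or from 1.17% to 0.634% of the library, a ratio of control to ER stress of 1.84. In the other 5 conditions the sum lay between 11241 and 13187 TPM. In RNA from bulk cultures, fewer cells of a type and less RNA per cell cannot be told apart.

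The other conditions left the members close to their control levels. In oxidative stress 0 of the 25 rose and 0 fell, beside 3.94% and 4.85% of all genes, and 14 were lower and 11 higher by any amount, beside 66.0% and 32.6%. Their median log2 change was -0.07, and the median of all genes was -0.16. In osmotic stress 0 rose and 0 fell, beside 3.08% and 8.76%, and 8 were lower and 17 higher, beside 61.6% and 36.7%, with medians of 0.08 for the members and -0.12 for all genes. Relative to the median of all genes the members' medians were therefore 0.08 in oxidative and 0.20 in osmotic stress, and the sign in oxidative stress depends on that reference. In glucose depletion 0 rose and 0 fell, beside 1.83% and 2.41% of all genes. Here 5 were lower and 20 higher, beside 53.7% and 44.5%, and the changes ran from -0.28 to 0.31. In glutamine depletion 0 rose and 0 fell, beside 3.21% of all genes in each direction. The split was 12 lower and 13 higher, beside 60.0% and 38.3%, with a median of 0.02. In hypoxia 0 rose and 1 fell, Col15a1, beside 3.57% and 2.64% of all genes, and 8 were lower and 17 higher, beside 55.5% and 42.8%, with a median of 0.11. Over these 5 conditions, 117 of the 125 member values were within 1.5-fold of the control. Of all genes, 7.27% were higher and 16.2% lower by more than 1.5-fold in oxidative stress. These shares were 6.56% and 19.5% in osmotic stress and 3.47% and 6.23% in glucose depletion. They were 7.47% and 10.6% in glutamine depletion and 7.23% and 8.10% in hypoxia.

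**Figure D2:**
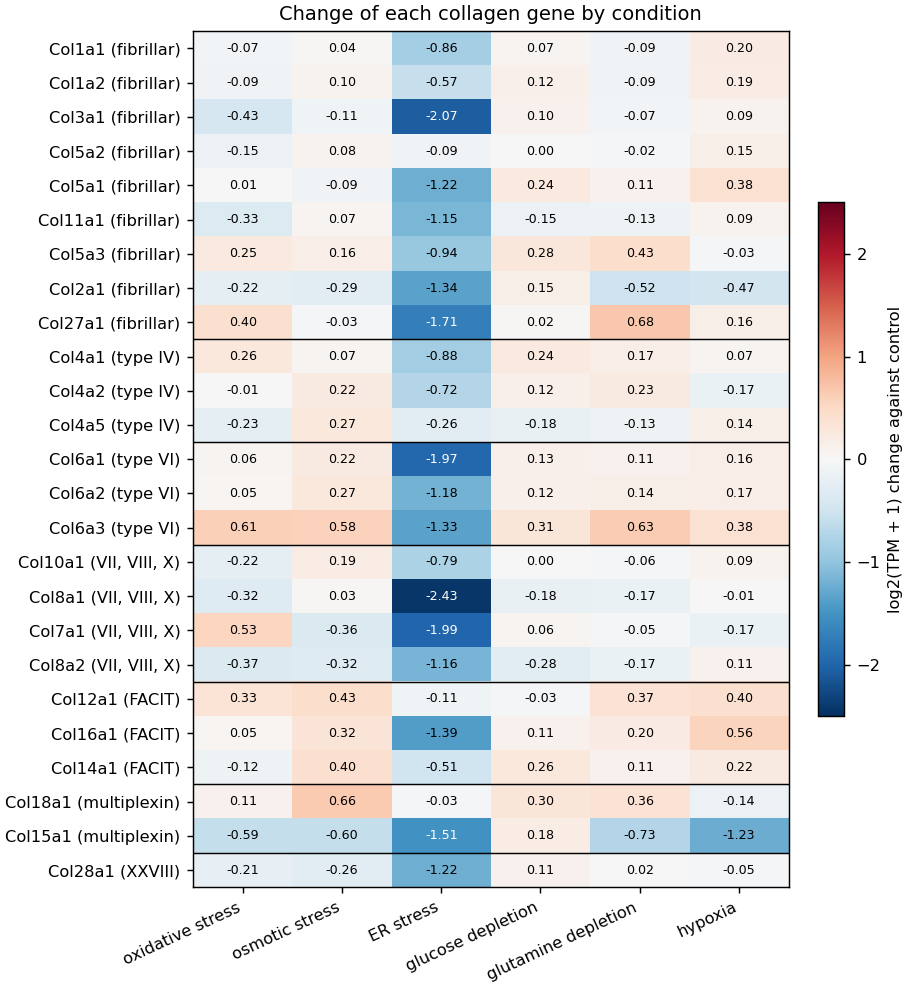
Log2(TPM + 1) change of the 25 collagen genes against the control (colour and printed value), with 1 row a gene grouped by class and 1 column for each of the 6 conditions, 1 library each. All 25 cells are below 0 in ER stress, with a median of -1.16, and in the other conditions the medians lie between -0.07 and 0.11.

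Fibrillar and other types had nearly the same median change under ER stress. Of the 9 fibrillar members 5 fell, with a median of -1.15, and of the 16 others 9 fell, with a median of -1.17, a difference of 0.02 whose sign changed with the processing (from -0.12 to 0.11 where the low members were left out). The share of fibrillar chains in the collagen sum was 73.2% in the control and 75.1% in ER stress. The classes within the other types were further apart. The summed TPM of type VI went from 1143 to 402 (log2 ratio -1.50) and that of types VII, VIII and X from 434 to 162 (-1.42). Type IV went from 1073 to 619 (-0.79) and the FACIT collagens from 406 to 332 (-0.29). Types XV and XVIII together, the multiplexins of vessel and epithelial basement membranes, went from 64.1 to 59.2 (-0.11). Single genes made up most of some sums, in the control Col12a1 (318 TPM) for the FACIT collagens and Col18a1 (59.1 TPM) for the multiplexins. The median changes of the members were -0.51 for the 3 FACIT collagens and -0.77 for the 2 multiplexins.

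Types I and III, the chains of the major fibrils, were lowered to different extents. Col1a1, which gives 2 of the 3 chains of a type I molecule, was at 3154 TPM in control cells and 1739.9 TPM under ER stress, against 2998 in oxidative stress, 3238 in osmotic stress, 3313 under glucose depletion, 2953 under glutamine depletion and 3629 under hypoxia. Col1a2, the remaining chain, was at 2179.6 TPM in control cells and 1467 TPM under ER stress, against 2049, 2329.8, 2368, 2054 and 2492 TPM in the same order. The ER stress library was thus the lowest for both chains, although neither passed 2-fold, with log2 changes of -0.86 and -0.57. Col3a1, the single chain of type III found beside type I in skin and vessels, stood at 1479 TPM in control cells and 352 TPM under ER stress, against 1098, 1366, 1583, 1413 and 1575 TPM. It fell by 2.07 on the log2(TPM + 1) scale, where this was the second largest change of the 25 after Col8a1. By the plain TPM ratio of control to ER stress, Col27a1 (4.86), Col7a1 (4.76), Col15a1 (4.55) and Col28a1 (4.42) also exceeded Col3a1 (4.20). The ratio of Col1a1 to Col1a2 was 1.45 in the control and 1.19 in ER stress, and between 1.39 and 1.46 elsewhere. The other 6 libraries spanned a ratio of 1.44 for Col3a1 and 1.23 for Col1a1. The ratio of Col3a1 to Col1a1 was 0.469 in the control and 0.202 in ER stress, and between 0.366 and 0.478 in the other libraries.

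The type V chains, which enter type I fibrils and limit their width, split. Col5a1 fell from 671 TPM in the control to 288 TPM in ER stress (log2 change -1.22), against 675, 632, 791, 722 and 875 TPM in oxidative stress, osmotic stress, glucose depletion, glutamine depletion and hypoxia. Col5a2, its usual partner, was at 884 TPM in control cells and 832 TPM under ER stress (-0.09), inside its range of 796 to 981 TPM over the other libraries. The lowest library for Col5a2 was oxidative stress. Col5a3 was at 53.0 TPM in control cells and 27.0 TPM under ER stress (-0.94). The ratio of Col5a1 to Col5a2 was 0.759 in the control, between 0.676 and 0.894 in the other libraries without ER stress, and 0.346 in ER stress. In cells the usual type V molecule holds 2 Col5a1 chains for each Col5a2 chain, while the transcript ratio stayed under 1 in all 7 libraries. Among the remaining fibrillar members, Col11a1 went from 102 to 45.5 TPM (-1.15), Col2a1 from 16.5 to 5.93 TPM (-1.34) and Col27a1 from 6.98 to 1.44 TPM (-1.71).

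**Figure D3:**
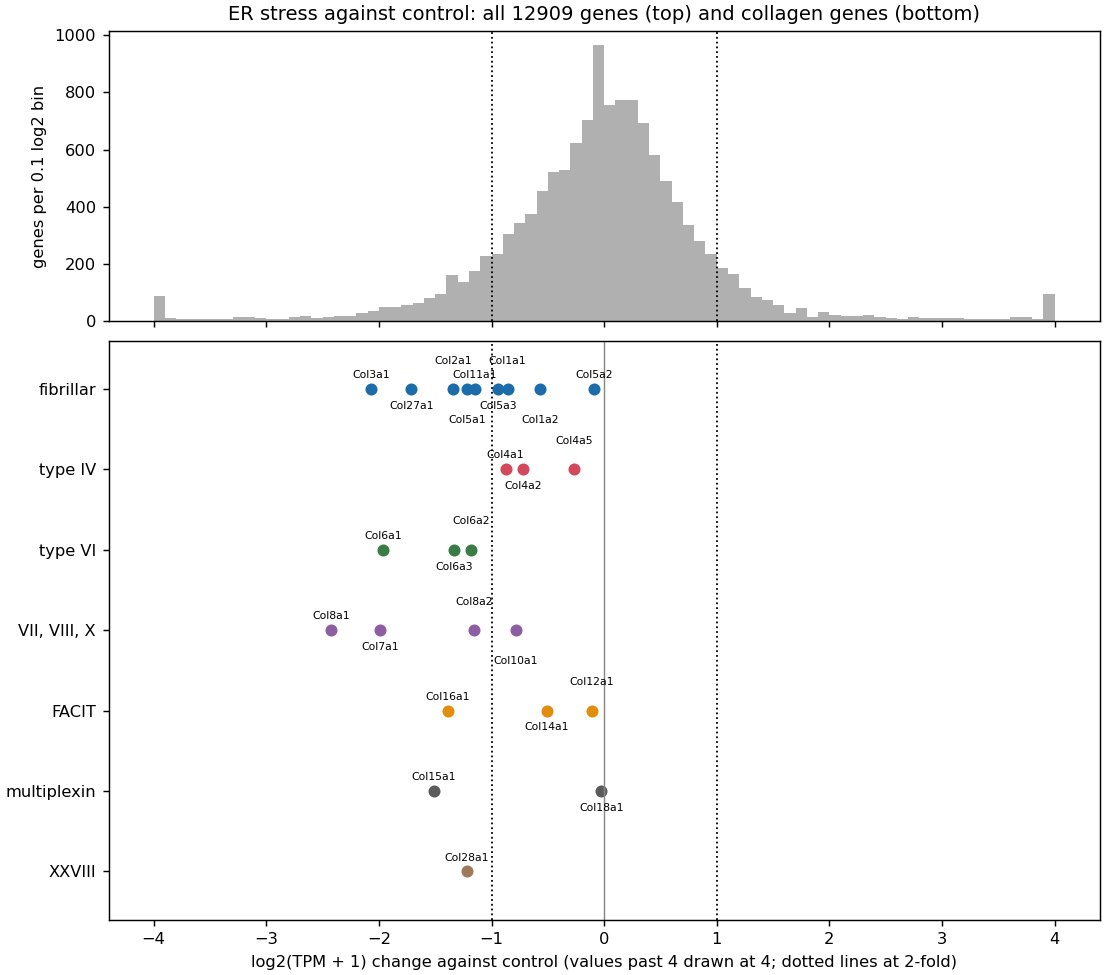
Log2(TPM + 1) change in ER stress against the control, 1 library each, as a histogram of the 12909 genes (top, genes per 0.1 log2 units, values past 4 drawn at 4) and as 1 point for each of the 25 collagen genes by class (bottom), with dotted lines at 2-fold. All collagen points lie left of 0, from Col18a1 at -0.03 to Col8a1 at -2.43, while the histogram is centred near 0.

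Col3a1 and Col5a2 are neighbours in the genome, and moved apart. In GENCODE M21 on GRCm38, Col3a1 is at chr1:45311538-45349706 on the plus strand and Col5a2 at chr1:45374321-45503282 on the minus strand, so the genes point towards each other with 24614 bases between them. In the control Col3a1 had 1.67 times the level of Col5a2, and in ER stress 0.423 times. The other 5 libraries gave ratios of 1.38 to 1.79.

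The type IV chains were lowered together, without passing 2-fold. Col4a1 was at 659 TPM in control cells and 359 TPM under ER stress (log2 change -0.88), against 693 to 788 TPM in the other 5 libraries. Col4a2 was at 377 TPM in control cells and 228 TPM under ER stress (-0.72), against 335 to 443 TPM. Both genes start from the same place on chromosome 8, Col4a1 at chr8:11198423-11312826 on the minus strand and Col4a2 at chr8:11312805-11449287 on the plus strand, with 22 bases annotated to both. Their ratio was 1.75 in the control and 1.57 in ER stress, the latter at the low end of the 1.57 to 2.10 seen in the other libraries. Col4a5, a chain of other type IV molecules and encoded on the X chromosome, was at 35.0 TPM in control cells and 28.9 TPM under ER stress (-0.26), beside 29.7 TPM in oxidative stress.

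All 3 expressed type VI chains fell in ER stress, by unequal amounts. Col6a1 fell from 476 TPM to 121 TPM (log2 change -1.97), while the other 5 libraries ran from 496 to 554 TPM, and the ratio of highest to lowest outside ER stress was 1.16. Col6a2 fell from 388 to 170.4 TPM (-1.18), against 400.5 to 467 TPM. Col6a3, the largest chain of the filament, fell from 279.6 to 110.4 TPM (-1.33), against 346 to 435 TPM. Col6a1 and Col6a2 lie on the same strand of chromosome 10, at chr10:76708792-76726168 and chr10:76595762-76623630, with 85161 bases between them. A type VI molecule takes 1 of each chain. The ratio of Col6a1 to Col6a2 was 1.23 in the control and between 1.19 and 1.24 in the other libraries, and was 0.710 in ER stress. The ratio of Col6a3 to Col6a1 was 0.588 in the control and 0.913 in ER stress, with 0.859 as its highest value elsewhere.

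**Figure D4:**
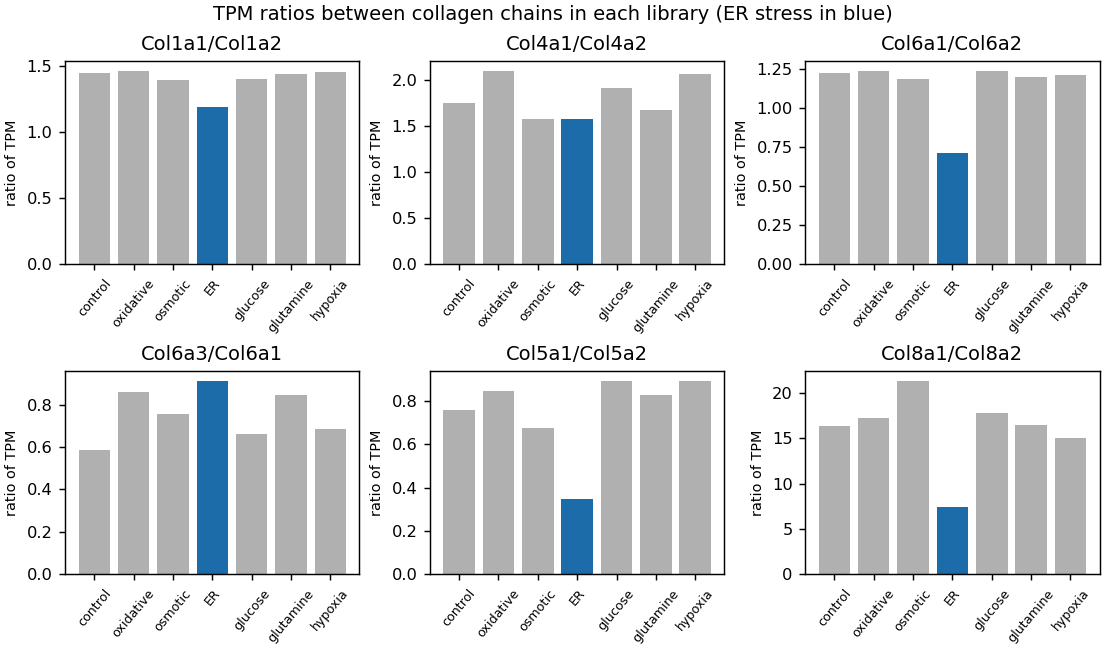
TPM ratios between chains of the same collagen type, 1 panel a pair and 1 bar for each of the 7 libraries (linear axes from 0, no error bars, ER stress in blue). In ER stress the bars of Col5a1/Col5a2 (0.346), Col6a1/Col6a2 (0.710), Col8a1/Col8a2 (7.39) and Col1a1/Col1a2 (1.19) are the lowest of the 7, and that of Col6a3/Col6a1 (0.913) is the highest.

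The network and anchoring collagens included the member that fell most. Col8a1, a short-chain collagen of vessel walls and the corneal basement membrane, was at 202 TPM in control cells and 36.9 TPM under ER stress, against 162 in oxidative stress, 207 in osmotic stress, 178 under glucose depletion, 179 under glutamine depletion and 201 under hypoxia. It fell by 2.43 on the log2 scale, and the 6 libraries other than ER stress spanned a ratio of 1.28. Its partner Col8a2 fell from 12.4 to 4.99 TPM (-1.16), and the ratio of Col8a1 to Col8a2 went from 16.4 to 7.39, below the 15.0 to 21.3 of the other libraries. Col7a1, the chain of the anchoring fibrils under the epidermis, fell from 17.7 to 3.72 TPM (-1.99). Col10a1, known from hypertrophic cartilage, was at 201 TPM in control cells and 116 TPM under ER stress (-0.79). An opposite-strand gene, Nt5dc1, with a mean of 11.6 TPM, shares 18 exon bases with Col10a1, and the estimation at default settings did not use strand.

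A few members outside the fibrils were near their control level in ER stress. Col12a1, a FACIT collagen of tendon and stretched tissue, was at 318 TPM in control cells and 295 TPM under ER stress (log2 change -0.11). Col18a1, the precursor of endostatin, was at 59.1 TPM in control cells and 58.1 TPM under ER stress (-0.03), and its lowest library was hypoxia at 53.7 TPM. The related members differed from them. Col16a1, another FACIT collagen, fell from 80.7 to 30.2 TPM (-1.39), and Col15a1, the other multiplexin, fell from 4.99 to 1.10 TPM (-1.51). Col14a1 was at 4.06 TPM in control cells and 2.56 TPM under ER stress (-0.51), and Col28a1, a collagen of peripheral nerve, fell from 2.80 to 0.634 TPM (-1.22). Across the 25 members the ER stress change had a Pearson's r of 0.11 and a Spearman's rho of 0.14 with the control level, an r of 0.02 and rho of -0.04 with the annotated exon length, and an r of 0.24 and rho of 0.24 with the span of the gene, each taken as log10. These values are across genes of the same 2 libraries and are given as a description.

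The stretch before the transcription start was searched for common promoter motifs. RefSeq promoter sequences on GRCm38.p6 matched 20 of the 25 members, and the 200 bases before each start were searched on both strands for the CCAAT box, the TATA box (spelled TATAAA) and the GC box (spelled GGGCGG). Col8a1 and Col3a1 had the largest falls in ER stress on the log2(TPM + 1) scale. They were picked also because they lack each other's motifs, so that difference is not a result. The sequences of Col3a1 (chr1:45311338-45311537, plus strand) and Col8a1 (chr16:57754738-57754937, minus strand) are shown. They are written 5′ to 3′ on the strand of the gene, with TATAAA or GGGCGG in capitals. The latter appears as CCGCCC where it lies on the opposite strand.
Col3a1: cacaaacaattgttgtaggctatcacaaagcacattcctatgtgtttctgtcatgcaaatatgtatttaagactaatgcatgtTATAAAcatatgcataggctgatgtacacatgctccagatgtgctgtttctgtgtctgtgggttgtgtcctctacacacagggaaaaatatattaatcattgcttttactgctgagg
Col8a1: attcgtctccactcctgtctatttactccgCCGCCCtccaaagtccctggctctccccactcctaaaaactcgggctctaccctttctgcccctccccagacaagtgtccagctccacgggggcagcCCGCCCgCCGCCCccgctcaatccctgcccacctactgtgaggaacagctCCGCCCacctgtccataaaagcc
The Col3a1 stretch holds the letters TATAAA at 1 place, beginning 117 bases before the start, and no GC box. Whether these letters act as a TATA box was not tested. The Col8a1 stretch holds 4 GC boxes and no TATAAA. Over the 22 stretches of the matched members, the GC box was found in 14 (63.6%), against 31.1% of 32843 RefSeq stretches of the same length. The CCAAT box was found in 7 (31.8%), against 29.4%, and the letters TATAAA in 2 (9.09%), against 9.96%. They began 117 bases before the start in Col3a1 and 32 bases before it in Col10a1. None of these motifs contains another, and a match is a description of the letters only.

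Outside ER stress the largest difference was that of Col15a1, a basement membrane collagen of low level. It was at 4.99 TPM in the control, 2.98 in oxidative stress, 2.96 in osmotic stress, 1.10 in ER stress, 5.79 under glucose depletion, 2.61 under glutamine depletion and 1.55 under hypoxia. Control and glucose depletion were thus high, and the other 5 libraries low. Only in hypoxia (-1.23) and ER stress (-1.51) did it fall by more than 2-fold, and the differences between conditions were not tested. At this level the change depends on the pseudocount, and with 5 TPM neither fall passed 2-fold.

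Col6a3 stood above the control in all 5 conditions other than ER stress, as did Col4a1, Col6a1, Col6a2 and Col16a1. It was at 279.6 TPM in the control and at 426 TPM in oxidative stress, 419 in osmotic stress, 346 under glucose depletion, 435 under glutamine depletion and 365 under hypoxia. The control was its lowest library apart from ER stress, and all of its differences share that 1 value. The log2 changes were 0.61, 0.58, 0.31, 0.63 and 0.38, none past 2-fold. Col12a1 was near the control in glucose depletion and higher in the other 4, at 318 TPM in the control, 400.5 in oxidative stress, 429 in osmotic stress, 312 under glucose depletion, 411 under glutamine depletion and 419 under hypoxia.

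Other members stood apart from the control in single conditions, without passing 2-fold. Col18a1 was at 93.9 TPM in osmotic stress against 59.1 TPM in the control (log2 change 0.66). Col7a1 was at 26.0 TPM in oxidative stress against 17.7 TPM (0.53), and at 13.6 TPM in osmotic stress (-0.36). Col27a1 was at 11.7 TPM in glutamine depletion against 6.98 TPM (0.68). In hypoxia Col16a1 was at 119 TPM against 80.7 TPM in the control (0.56), and Col2a1 at 11.7 TPM against 16.5 TPM (-0.47). Col3a1 was at 1098 TPM in oxidative stress against 1479 TPM in the control (-0.43), the lowest of its libraries outside ER stress. The library with the highest level was osmotic stress for 8 members, hypoxia for 7, glucose depletion for 4, glutamine depletion for 4 and oxidative stress for 2. The matching shares over all genes were not computed, so these counts have no baseline.

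Enzymes and chaperones that prepare collagen in the ER moved in both directions in ER stress. Of 24 genes for hydroxylation, folding and export, 23 passed 2 TPM. In ER stress 2 rose (8.7%) and 1 fell (4.35%), beside 8.60% and 11.0% of all genes, with a median log2 change of -0.41. By any amount 15 were lower and 8 higher, beside 48.5% and 49.9% of all genes. Among those lower without passing 2-fold were P4ha3 (-0.95), Fkbp7 (-0.94) and Plod2 (-0.84). P3h2, a prolyl 3-hydroxylase, rose from 2.02 to 14.1 TPM (2.32), and Mia3 (TANGO1), which loads procollagen into export carriers, rose from 243.5 to 519.6 TPM (1.09). P3h4, a partner of the lysyl hydroxylase complex, fell from 246 to 38.8 TPM (-2.64). The collagen chaperone Serpinh1 (HSP47) was at 1741 TPM in control cells and 2477 TPM under ER stress (0.51), and P4hb, the shared subunit of prolyl 4-hydroxylase and a disulphide isomerase, at 1293 and 2268 TPM (0.81).

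In hypoxia 4 of the 23 genes rose and 0 fell, beside 3.57% and 2.64% of all genes, with a median of 0.16, while 1 of the 25 collagen genes passed 2-fold. The 4 are hydroxylases of proline or lysine in collagen chains. Plod2 rose from 40.7 to 203 TPM (log2 change 2.29), P4ha2 from 106 to 500.2 TPM (2.22), P4ha1 from 129.6 to 486 TPM (1.90) and Plod1 from 66.0 to 176 TPM (1.40). The summed level of collagen transcripts in that library was 13187 TPM, beside 11673 TPM in the control. In glutamine depletion 1 gene of the list rose, P3h2 (1.20), and in oxidative stress, osmotic stress and glucose depletion 0 rose and 0 fell.

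Among genes that act on collagen after secretion, 4 for cleavage and cross-linking fell in ER stress. Of 13 genes for propeptide cleavage and cross-linking 11 passed 2 TPM, and 4 fell and 0 rose, beside 11.0% and 8.60% of all genes, with a median log2 change of -0.86. Loxl3 and Loxl1, oxidases that start cross-links, fell from 168 to 47.1 TPM (-1.81) and from 339.8 to 121 TPM (-1.48). Bmp1, the protease that removes the carboxyl propeptide of fibrillar chains, fell from 107 to 49.9 TPM (-1.08), and Pcolce2, which enhances it, from 11.5 to 4.21 TPM (-1.27). In the other 5 conditions 0 of the 11 rose and 0 fell. Of 8 receptor and uptake genes 7 passed 2 TPM, and in ER stress 2 rose and 3 fell, beside 8.60% and 11.0% of all genes, with a median of -0.70. The integrin subunit Itga2 rose from 0.702 TPM in the control (2.04) and the fibrillar collagen receptor Ddr2 from 141 to 284.9 TPM (1.01). Mrc2, an endocytic receptor for collagen, fell from 106 to 26.3 TPM (-1.98), Ddr1 from 64.9 to 22.5 TPM (-1.49) and Itga11 from 53.0 to 22.9 TPM (-1.18). Itga2 also rose in glucose depletion (1.24) and glutamine depletion (1.89).

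**Figure D5:**
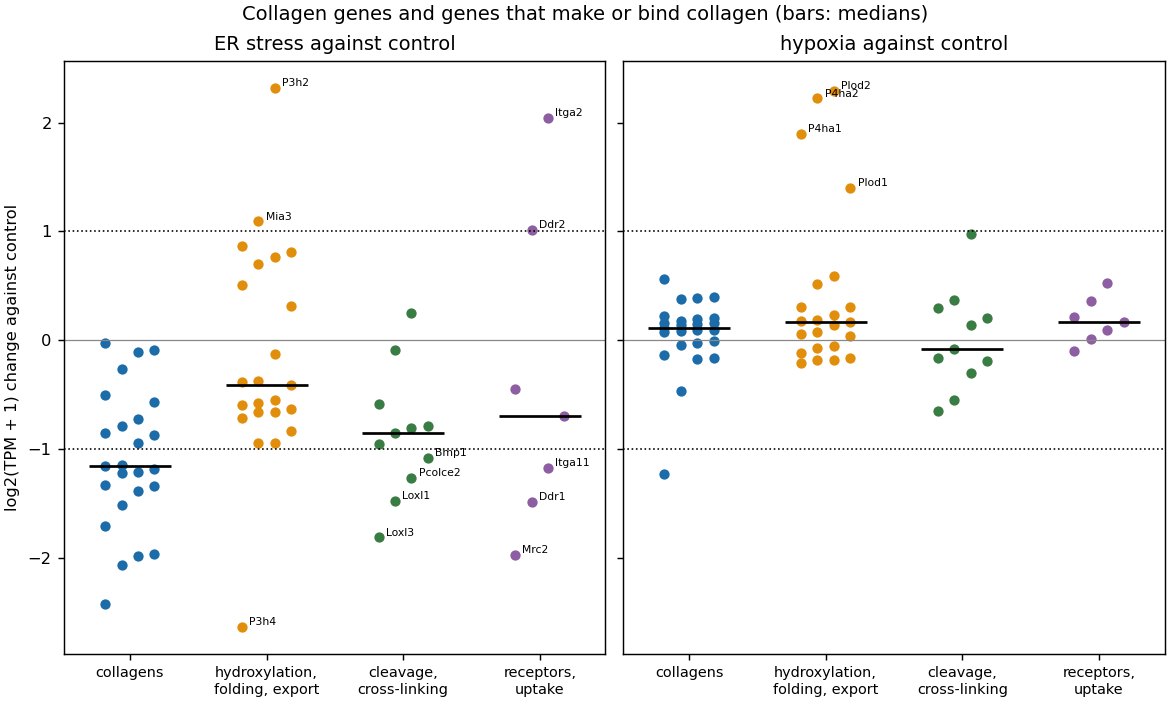
Log2(TPM + 1) change against the control of the 25 collagen genes and of the genes for hydroxylation, folding and export, for cleavage and cross-linking, and for receptors and uptake, in ER stress (left) and hypoxia (right), 1 library each. Points are genes, bars are medians and dotted lines mark 2-fold. The cleavage and cross-linking genes lie low in ER stress (median -0.86), and 4 hydroxylation genes lie above 1 in hypoxia.

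Fibroblast markers other than collagens also had lower levels in ER stress. All 6 (Pdgfra, Pdgfrb, Thy1, Vim, Dcn and Lum) were lower than in the control, with log2 changes from -0.39 for Pdgfra to -2.33 for Lum, and their summed level was 2608 TPM against 4613 TPM in the control and 4124 to 5278 TPM elsewhere. The 5 chondrocyte markers, set beside Col2a1 and Col10a1, summed to 59.9 TPM in the control, 35.2 TPM in ER stress and at most 66.0 TPM. Most of the control sum was Comp (46.0 TPM) and Sox9 (10.1 TPM), with Hapln1 at 2.15 and Acan at 1.68 TPM. Matn1 was under 0.5 TPM in every library. Across the 7 libraries the sums were 13.0 to 33.0 TPM for osteoblast (mostly Runx2), 4.09 to 9.07 TPM for endothelial and 6.76 to 13.7 TPM for macrophage markers. They were 35.4 to 155.8 TPM for epithelial (mostly Krt19) and 13.8 to 36.2 TPM for skeletal muscle markers (mostly Des). The lowest library was ER stress for the osteoblast, macrophage and skeletal muscle sums too, and glucose depletion for the endothelial and epithelial sums. The part of cell composition in the collagen changes was not tested.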

How the data were processed

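RNA was measured in 7 libraries of MEFs, prepared as stranded mRNA libraries and read from both ends. The authors quantified reads with Kallisto 0.43.1 at default settings against all cDNA of GRCm38, summed transcripts by gene and deposited TPM, in which every library totals 1000000. TPM holds no read counts, so depth is unknown and no counting interval can be given. Between 19819 and 21154 genes a library were above 0. Conditions came from the sample labels, with 1 library each, so no test, replicate error or leave-one-out fit was possible. From the deposited TPM, log2(TPM + 1) was taken and the control subtracted. Genes averaging 2 TPM or more (12909 of 49382) were kept and a change of more than 2-fold was counted. The collagen genes and the gene lists were chosen with earlier results of these data known. The naming rule covered Col1a1, Col1a2, Col3a1, types IV, V and VI, and the 3 members with the largest change in each direction and condition, members past 2-fold in 2 or more conditions, and at most 2 genes per list and condition. Other named members and the further genes of each list were chosen after their values were seen. All 44 collagen symbols matched GENCODE M21. Alternatives were pseudocounts of 0.1 and 5 TPM, no filter or 10 TPM, centring on all genes, removal of mitochondrially encoded or of collagen genes from the total, thresholds of 1.5-fold and 3-fold, and the median of the 7 libraries as the reference. The steps were run on simulated data with large set changes in genes well above 2 TPM. This checks the calculation, and says nothing of genes at low levels or of spread between cultures. Scripts ran in Python 3.11.15 with pandas 2.3.3 and numpy 2.4.6, and plots were drawn with matplotlib 3.10.9.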

Additional observations from a re-analysis of the deposited data

How the results depend on the processing

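The counts that rose or fell, the median changes and the fibrillar minus other differences were recomputed, and sums of TPM, chain ratios and the other gene lists were not. Of the recomputed values 199 stayed close to the one reported and 17 moved further. Close meant within 1.5 times for counts, and within 1.5-fold on the log2 scale for medians and differences. Outside ER stress the reported medians and differences were all smaller than that margin, so staying close says little of their sign. No gene called in one direction was called in the other. Values near 0 did change sign. The fibrillar minus other difference in ER stress (0.02) was -0.11 with a pseudocount of 5 TPM and -0.12 with the median of the 7 libraries as the reference, and that in glucose depletion (-0.02) was 0.06 without a filter and 0.11 with the median reference. The median in oxidative stress (-0.07) was 0.01 without a filter and 0.08 when centred on all genes. The median in glutamine depletion (0.02) was -0.02 at a mean of at least 10 TPM. Without a filter on low values, which adds the 19 low members, 1 collagen gene rose in each of ER, oxidative and osmotic stress. Of all 49382 genes, 3.45%, 1.85% and 1.87% rose in these conditions. The ER stress median without a filter was -0.54 and the fibrillar minus other difference there was -0.79. At 1.5-fold, oxidative and osmotic stress each had 1 gene that rose and 1 that fell, and glutamine depletion had 2 and 1. The shares of all genes were 7.27% and 16.2% in oxidative, 6.56% and 19.5% in osmotic stress and 7.47% and 10.6% in glutamine depletion. The count that fell in ER stress was 9 with a pseudocount of 5 TPM and 5 at 3-fold, beside 6.03% and 4.31% of all genes. It was between 11 and 19 under the other alternatives, 11 at a mean of at least 10 TPM and 19 at 1.5-fold. The shares of all genes that fell at these settings were 9.47% and 21.3%. The count that fell in hypoxia was 0 with a pseudocount of 5 TPM, at 3-fold, at a mean of at least 10 TPM, and with the median of the 7 libraries as the reference. Single members lost their call in ER stress with 5 TPM (Col2a1, Col8a2, Col15a1, Col27a1 and Col28a1) and with the median reference (Col8a2 and Col15a1), where Col5a3 passed 2-fold. No paired analysis was possible because each condition had 1 library. The spread between cultures is unknown, so small differences from the 1 control cannot be told from differences between cultures, and members under a few TPM are the least precise.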
